A study of Mus musculus with 32 samples.

Results

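Heat shock proteins and chaperonins were followed through the late 1-cell and late 2-cell stages of mouse embryos. The embryos were labelled by maternal and zygotic allele of Dppa2 or Dppa4, a pair of nuclear proteins of early embryos. Members were taken by name: genes starting with Hspa, Hspb, Hspd, Hspe, Hsph or Hsp90 (Hspbp1 and Hspbap1 come with Hspb), the numbered Dnaja, Dnajb and Dnajc genes, Cct2 to Cct8, Tcp1, Hsf1 and Hsf2. Of 98 matching names, 12 held the mark of a pseudogene (-ps) and were left out, which gave 86 of the 46078 genes in both tables. They comprised 2 heat shock factors, 11 HSP70, 3 HSP110 and 3 HSP90 genes, 8 small heat shock proteins, 2 mitochondrial chaperonin genes, 2 HSP-binding genes, 4, 13 and 28 J-domain genes of classes A, B and C and 10 genes of the cytosolic chaperonin TRiC and its relatives. The given markers were detected: Hsp90aa1 was among the most abundant members, while Hspa1a and Hspb1 were low at the 1-cell stage and higher at the 2-cell stage in total RNA. In polyA RNA Hspb1 was higher at the 2-cell stage too, but Hspa1a overlapped. It ran from 0.0121 to 8.02 FPKM in 2-cell and from 0.181 to 0.652 FPKM in 1-cell embryos.

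RNA was sequenced in 32 libraries, as total RNA (16) and as polyA RNA of single embryos (16). In the labels m is the maternal and z the zygotic allele. Total RNA came in groups of 2 at each stage, late 2-cell (28 hours post fertilization) and late 1-cell (12 hours): Dppa2 m-z+ and m+z+ embryos of a mixed B6/DBA background, and Dppa4 m-z+ and m+z+ embryos of a B6 background, m+z+ being the controls. PolyA RNA came from 3 late 2-cell embryos each of Dppa2 m-z- and Dppa2 m-z+ (B6/DBA) and of Dppa4 m-z- and Dppa4 m-z+ (B6), with 2 late 2-cell and 2 late 1-cell WT embryos (B6). The labels name no Cre driver, no targeting design and no animal, and do not say how many embryos a total RNA library pooled, so p-values measure how far these libraries spread, and that spread may be technical only. Values are FPKM, read fragments scaled to transcript length and to the library total, so levels of different genes are compared per length, and the sequencing depth is unknown.

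HSP70 chaperones bind unfolded stretches of proteins in an ATP cycle that J-domain proteins start and that nucleotide exchange factors such as the HSP110 proteins reset. HSP90 takes over many of these clients, small heat shock proteins hold unfolded proteins without ATP, and the ring-shaped chaperonins, TRiC in the cytosol and HSP60 with HSP10 in mitochondria, fold proteins inside a chamber. The heat shock factor HSF1 switches on stress-inducible members through heat shock elements in their promoters, while chaperones of the endoplasmic reticulum are induced through ER stress elements. In the mouse, inducible HSP70 is known as a product of early genome activation, and the oocyte stores much chaperone RNA.

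Promoter sequence (RefSeq, GRCm38.p6) was given for 70 of the 86 members. The other 16, among them Hsp90aa1, Hsp90ab1, Hspa8, Hspa9, Hsf1 and Cct4, were not searched. The 250 bases before each start site were searched on both strands for 3 motifs, and the stretches below are shown because they carry the heat shock or ER stress elements of members whose levels are described next. Capitals mark the fixed bases of a match, and the letters run 5′ to 3′ on the gene's strand. A 3-unit heat shock element was taken as the run GAA, NN, TTC, NN, GAA or the run TTC, NN, GAA, NN, TTC, and its 2-unit core as GAANNTTC or TTCNNGAA (N, any base), so every 3-unit match also counts as a core. An ER stress element was taken as CCAAT, 9 bases of any kind (NNNNNNNNN) and CCACG, or the reverse complement of that run. The inducible pair Hspa1a (chr17:34972157-34972406, minus strand) and Hspb1 (chr5:135887669-135887918, plus strand) have cores but no 3-unit match.
Hspa1a: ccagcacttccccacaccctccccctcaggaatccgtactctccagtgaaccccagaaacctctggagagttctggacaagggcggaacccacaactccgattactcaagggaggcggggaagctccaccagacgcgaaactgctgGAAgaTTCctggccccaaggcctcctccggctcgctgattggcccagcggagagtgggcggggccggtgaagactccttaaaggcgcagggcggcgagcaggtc
Hspb1: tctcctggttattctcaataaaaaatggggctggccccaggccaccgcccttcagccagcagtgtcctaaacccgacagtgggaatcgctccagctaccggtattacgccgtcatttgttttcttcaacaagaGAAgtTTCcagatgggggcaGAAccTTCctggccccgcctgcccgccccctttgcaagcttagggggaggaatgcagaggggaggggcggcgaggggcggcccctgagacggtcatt
Hspd1 and Hspe1 share a divergent promoter, and a 30-base stretch of it (chr1:55088053-55088082, minus strand) holds overlapping heat shock units. This stretch lies downstream of the outer start site of Hspd1, and the Hspd1 window that holds it is wholly in annotated exons.
Hspd1: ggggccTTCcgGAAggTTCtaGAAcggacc
The ER chaperone genes Hspa5 (chr2:34772020-34772049, plus strand) and Hsp90b1 (chr10:86705510-86705694, minus strand) carry ER stress elements.
Hspa5: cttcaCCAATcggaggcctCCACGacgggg
Hsp90b1: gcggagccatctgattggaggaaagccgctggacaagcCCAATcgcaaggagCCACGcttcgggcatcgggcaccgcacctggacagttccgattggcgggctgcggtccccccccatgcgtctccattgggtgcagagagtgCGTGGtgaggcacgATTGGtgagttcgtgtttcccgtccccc
The 250 bases before Hspb1 hold 2 cores, those before Hspa1a hold 1, and those before Hspa1b (chr17:34959239-34959488, minus strand) hold 1 and differ from the Hspa1a stretch at 3 bases.
Hspa1b: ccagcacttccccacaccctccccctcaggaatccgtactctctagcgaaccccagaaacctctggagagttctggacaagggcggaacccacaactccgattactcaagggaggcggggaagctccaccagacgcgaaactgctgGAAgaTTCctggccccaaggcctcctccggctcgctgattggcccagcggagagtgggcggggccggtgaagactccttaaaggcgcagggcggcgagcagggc

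A 3-unit heat shock element stood in 3 of 70 member promoters (4.29%; Dnajb6, Hspd1 and Hspe1), against 139 of 27025 genes (0.514%). Hspd1 and Hspe1 count the same shared stretch, and the Hspd1 window before its outer start site held none. For every motif a gene counted when any of its windows held a match (89 windows for the 70 members). The 2-unit core stood in 17 of 70 members (24.3%) and in 14.5% of all genes, and an ER stress element in 3 of 70 members (4.29%; Dnajc3, Hsp90b1 and Hspa5), against 0.130% of all genes. These matches describe letters in the window only. Of 16 tested members with the core, 7 were higher and 7 lower at the 2-cell stage in Dppa2-arm controls, beside 15 and 14 of 41 without it, where 31.7% of all genes were higher and 29.9% lower. In Dppa4-arm controls 4 were higher and 7 lower with the core, beside 7 and 18 of 41 without it, where 24.9% of all genes were higher and 24.2% lower. In WT polyA RNA 1 was higher and 3 lower of 17 with the core, beside 10 and 7 of 47 without it. Over all genes 17.4% were higher and 8.42% lower there. Higher and lower here mean an adjusted p below 0.05 in the test across all genes.

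FPKM summed to 509724 to 629583 per 2-cell and 412115 to 471322 per 1-cell total RNA library, and to 576436 to 675241 and 539978 to 548245 in polyA RNA. Summed maternal transcripts (10 genes) stood at 316 to 747 FPKM in 2-cell and 1662 to 2362 FPKM in 1-cell total RNA libraries, and 2-cell genes (8 genes) at 325 to 430 FPKM against 6.52 to 28.4 FPKM, in the order of the labelled stages. Cumulus and granulosa markers (8 genes) summed to 0.735 to 5.15 FPKM in 2-cell and 0.182 to 1.60 FPKM in 1-cell total RNA libraries, and to 7.46 to 43.4 FPKM against 0.500 to 0.603 FPKM in polyA RNA. Only 1 of the 8 in total RNA and 2 in polyA RNA reached 1 FPKM in 2 or more libraries. Tnfaip6 alone was called higher at the 2-cell stage. In each 2-cell polyA embryo 5 to 7 of these markers were listed at 0. Their part in the results was not tested. Dppa2 measured 9.38 and 9.52 FPKM in 1-cell Dppa2 m-z+ embryos, against 32.3 and 32.7 FPKM in their controls, and Dppa4 itself was listed at 0, 0 and 0.15 FPKM in the 3 embryos of Dppa4 m-z-. In 2-cell total RNA, Dppa2 measured 44.8 and 59.2 FPKM in Dppa2 m-z+ embryos, against 49.7 and 53 FPKM in controls. Dppa4 there measured 25.5 and 20.3 FPKM in Dppa4 m-z+ embryos, against 30.1 and 17.6 FPKM in controls. RNA of the target gene thus overlapped between m-z+ and control embryos at the 2-cell stage. The 3 single embryos labelled Dppa2 m-z- held 155, 130 and 76.5 FPKM of Dppa2, against 92.4, 87.4 and 63.3 FPKM in Dppa2 m-z+ embryos, so RNA levels do not show the labelled genotype, and they are called "labelled Dppa2 m-z-" throughout. Any direction drawn from those embryos rests on the label.

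From the 1-cell to the 2-cell stage the members split. A test was made for 71 members in total RNA and 79 in polyA RNA, those reaching 1 FPKM in 2 or more libraries, on log2(FPKM + 1) with limma across all genes, adjusted p below 0.05. The 15 untested in total RNA were Cct6b, Dnajb3, Dnajb7, Dnajb8, Dnajb13, Dnajc6, Dnajc16, Dnajc22, Dnajc24, Hspa1l, Hspa12b, Hspb2, Hspb3, Hspb7 and Hspb9, and the 7 untested in polyA RNA were Dnajb5, Dnajb8, Dnajc6, Dnajc16, Hspb2, Hspb7 and Hspb9. In Dppa2-arm controls 26 members were higher and 25 lower at the 2-cell stage, where 31.7% of all genes were higher and 29.9% lower. In Dppa4-arm controls 13 were higher and 30 lower (background 24.9% higher and 24.2% lower), and in single WT embryos 13 were higher and 12 lower (background 17.4% and 8.42%). The member median of the log2 difference was -0.06 in Dppa2-arm controls, -0.44 in Dppa4-arm controls and 0.42 in WT polyA RNA, beside 0.06, 0.04 and 0.23 over all genes tested. Scaled to a common total (TPM), which lowers the median of all genes by 0.36, 0.28 and 0.10, the splits were 19 higher and 36 lower, 10 and 37, and 13 and 12. All genes moved too under that scaling. Of 15068 genes 3750 were higher and 5802 lower in Dppa2-arm controls, and 3087 and 4834 in Dppa4-arm controls. In WT polyA RNA 3039 were higher and 1831 lower of 18506.

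Values of the stages overlapped for only 10 of 71 tested members in Dppa2-arm controls and 13 of 71 in Dppa4-arm controls. In WT polyA RNA they overlapped for 20 of 79. Lack of overlap was thus common among members, and it was not counted over all genes. These 3 control comparisons share no library. Among 70 members tested in all 3, 6 were higher at the 2-cell stage in each (Cct6a, Dnajb9, Dnajb14, Dnajc12, Hspb1 and Hspbp1) and 10 were lower in each (Hsp90aa1, Hspa12a, Dnaja4, Dnajb4, Dnajc7, Dnajc8, Dnajc9, Dnajc11, Dnajc14 and Dnajc19). The 6 are 8.57% of the 70 and the 10 are 14.3%, where 13.2% of all genes tested in the 3 were higher and 8.32% lower in each. As shares of the rises in Dppa2-arm, Dppa4-arm and WT polyA embryos the 6 are 24%, 46.2% and 54.5%, against 41.1%, 51.2% and 62.9% over all genes. As shares of the falls the 10 are 40%, 33.3% and 83.3%, against 26.8%, 32.7% and 78.3%. Hspa4 alone was called in opposite directions, lower in Dppa4-arm total RNA and higher in WT polyA RNA. The m-z+ embryos gave 20 higher and 23 lower members in the Dppa2 arm (background 28.8% and 28.4%; TPM 16 and 32) and 14 and 26 in the Dppa4 arm (background 25.3% and 25.0%; TPM 11 and 34).

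**Figure D1:**
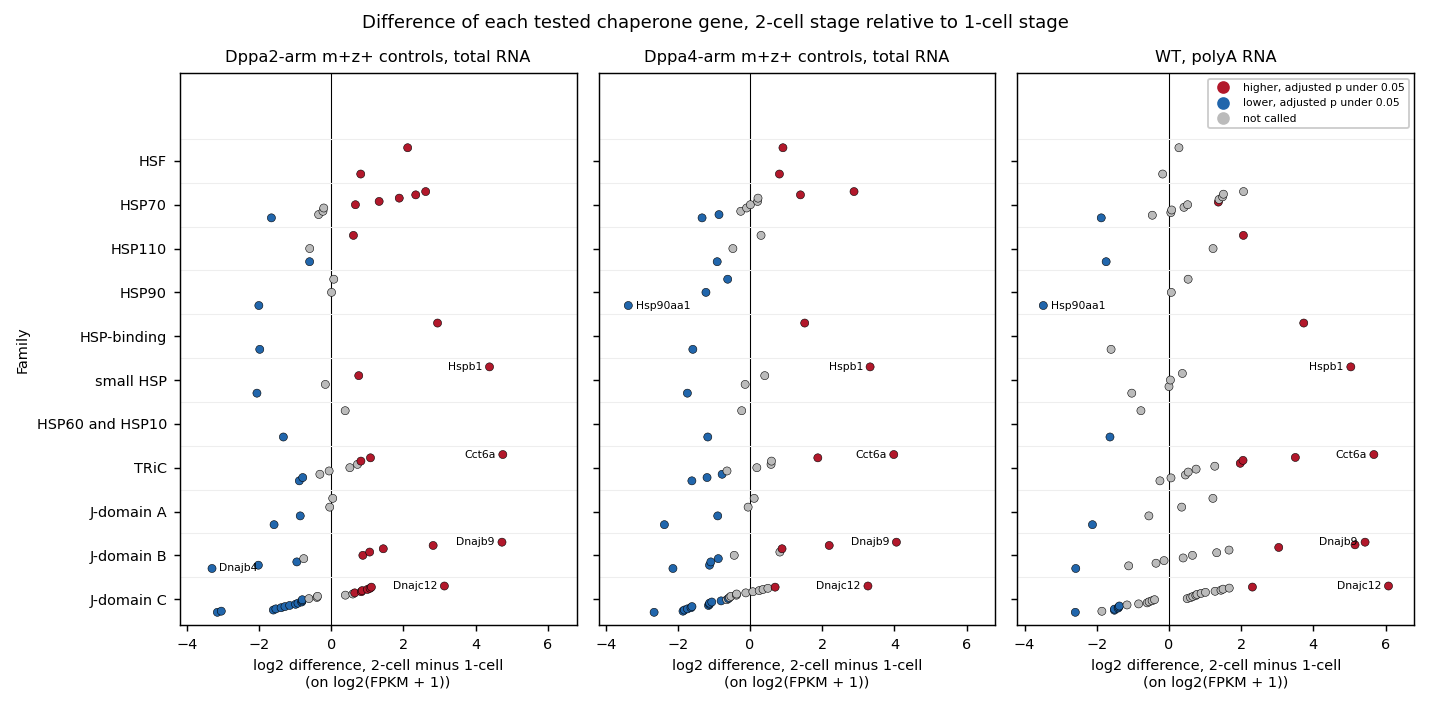
Log2 difference in FPKM + 1 between 2-cell and 1-cell embryos (x axis) for each tested member, grouped by family (y axis), in Dppa2-arm controls, Dppa4-arm controls and WT polyA embryos, with called members in red (higher) or blue (lower). Members sit on both sides of 0, with Cct6a, Dnajb9 and Hspb1 far to the right and Hsp90aa1, Dnajb4 and Dnajc11 far to the left in all 3.

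Both heat shock factors were higher at the 2-cell stage in total RNA. Hsf1, the main activator of heat shock genes, measured 65 and 68.1 FPKM in 2-cell and 38.9 and 35.7 FPKM in 1-cell Dppa2-arm controls (log2 difference 0.82, SE 0.14, limma adjusted p = 0.000215). In Dppa4-arm controls Hsf1 measured 52.2 and 54.3 FPKM in 2-cell and 29.8 and 30 FPKM in 1-cell embryos (log2 difference 0.81, SE 0.14, limma adjusted p = 0.000336). The stages did not overlap in either arm, whereas in WT polyA RNA they did, at 30.9 and 20.9 FPKM in 2-cell and 31 and 26.8 FPKM in 1-cell embryos (log2 difference -0.18, 95% interval -1.07 to 0.72). Hsf2, a second factor of the family that is active in development, was much less abundant. It measured 10.7 and 6.37 FPKM in 2-cell and 1.72 and 0.677 FPKM in 1-cell Dppa2-arm controls (log2 difference 2.12, SE 0.30, limma adjusted p = 5.23e-05). Hsf2 stood at 4.08 and 3.82 FPKM in 2-cell and 1.85 and 1.43 FPKM in 1-cell Dppa4-arm controls (log2 difference 0.91, SE 0.30, limma adjusted p = 0.0222), a call that was lost when any 1 of those 4 libraries was left out (adjusted p up to 0.125).

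Of 9 HSP70 genes tested in total RNA, 5 were higher and 1 lower at the 2-cell stage in Dppa2-arm controls, 2 were higher and 2 lower in Dppa4-arm controls, and in WT polyA RNA 1 of 11 was higher and 1 lower. Over all genes 31.7% were higher and 29.9% lower, 24.9% and 24.2%, and 17.4% and 8.42% in the same order. Hspa1a (chr17:34969190-34972156, minus strand), the stress-inducible HSP70, measured 11 and 6.91 FPKM in 2-cell and 0.644 and 1.25 FPKM in 1-cell Dppa2-arm controls (log2 difference 2.34, SE 0.31, limma adjusted p = 3.16e-05). In Dppa4-arm controls it measured 6.37 and 6.66 FPKM in 2-cell and 1.71 and 2 FPKM in 1-cell embryos (log2 difference 1.40, SE 0.31, limma adjusted p = 0.00243). Every 2-cell total RNA library of both arms, m-z+ included, was above every 1-cell library. WT polyA RNA held 2.56 and 3.29 FPKM of Hspa1a in 2-cell and 0.181 and 0.652 FPKM in 1-cell embryos (log2 difference 1.48, SE 0.88, limma adjusted p = 0.241), apart from each other but short of the threshold.

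Hspa1b, the neighbouring copy, measured 16.3 and 8.54 FPKM in 2-cell and 1.78 and 3.36 FPKM in 1-cell Dppa2-arm controls (log2 difference 1.89, SE 0.31, limma adjusted p = 0.000216). In Dppa4-arm controls Hspa1b stood at 7.59 and 6.47 FPKM in 2-cell and 5.18 and 6.79 FPKM in 1-cell embryos (log2 difference 0.21, SE 0.31, limma adjusted p = 0.608; -0.11 under TPM scaling), so the stages overlapped. The coding sequences of Hspa1a and Hspa1b are 99.6% identical over 1926 aligned bases, with 7 that differ, so the split of reads between the pair is uncertain. The difference between the arms in the stage change of Hspa1b was 1.68 (SE 0.45, limma adjusted p = 0.123) and did not pass.

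Hspa2, an HSP70 known for its role in male germ cells, was higher at the 2-cell stage in both arms. It measured 26.2 and 25.8 FPKM in 2-cell and 2.84 and 4.05 FPKM in 1-cell Dppa2-arm controls (log2 difference 2.62, SE 0.40, limma adjusted p = 9.64e-05), and 28.1 and 37.3 FPKM in 2-cell and 2.91 and 4.26 FPKM in 1-cell Dppa4-arm controls (log2 difference 2.88, SE 0.40, limma adjusted p = 6.92e-05). WT polyA RNA held 5.74 and 19.6 FPKM in 2-cell and 1.19 and 2.62 FPKM in 1-cell embryos, which did not overlap but did not pass (limma adjusted p = 0.0609). Hspa8, the constitutive cytosolic HSP70, was many times more abundant per length than Hspa1a at the 1-cell stage. It measured 83 and 91.2 FPKM in 2-cell and 91.7 and 110.1 FPKM in 1-cell Dppa2-arm controls (log2 difference -0.21, not passing), and 85.7 and 59.8 FPKM in 2-cell and 134 and 128 FPKM in 1-cell Dppa4-arm controls (log2 difference -0.86, SE 0.19, limma adjusted p = 0.0027). Hspa9, the mitochondrial HSP70, differed by -0.23, -0.26 and -0.46 on the log2 scale in Dppa2-arm controls, Dppa4-arm controls and WT polyA RNA and passed in none, although under TPM scaling it passed as lower in both arms.

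Hspa5 (BiP), the HSP70 of the endoplasmic reticulum, differed between the arms in its values. It measured 137 and 54.2 FPKM in 2-cell and 35.6 and 32 FPKM in 1-cell Dppa2-arm controls (log2 difference 1.33, SE 0.32, limma adjusted p = 0.00283), a call that was lost when only those 4 libraries were fitted. Dppa4-arm controls held 41.2 and 37.2 FPKM in 2-cell and 48.1 and 31.4 FPKM in 1-cell embryos (log2 difference 0.01, SE 0.32, limma adjusted p = 0.988). In WT polyA RNA Hspa5 stood at 82.7 and 58.1 FPKM in 2-cell and 32.4 and 21.3 FPKM in 1-cell embryos (log2 difference 1.37, SE 0.43, limma adjusted p = 0.025), and the call was lost without WT 2-cell replicate 1 or WT 1-cell replicate 2 (adjusted p up to 0.204 over the alternatives). The other carriers of an ER stress element had mixed values. Dnajc3, a J-domain co-chaperone of BiP, fell in both arms (log2 difference -1.53 in Dppa2-arm and -1.74 in Dppa4-arm controls), and Hsp90b1 fell in Dppa4-arm controls alone of the 3 control comparisons. In WT polyA RNA, where Hspa5 was called higher, Hsp90b1 stood at 70.2 and 77.6 FPKM in 2-cell and 51.8 and 49.8 FPKM in 1-cell embryos, also higher but short of the threshold (log2 difference 0.53, SE 0.36, limma adjusted p = 0.314). Hspa12a, a distant HSP70 relative, was lower at the 2-cell stage in all 3, with log2 differences of -1.66, -1.33 and -1.88 in Dppa2-arm, Dppa4-arm and WT polyA embryos, the last lost without WT 1-cell replicate 1 or 2 or WT 2-cell replicate 2 (adjusted p up to 0.128).

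HSP90 changed in composition between the stages. Hsp90aa1 (chr12:110690605-110702728, minus strand), the inducible cytosolic form, was lower at the 2-cell stage in all 5 stage comparisons, while Hsp90ab1, the constitutive form, was lower in Dppa4-arm controls alone (under TPM scaling in Dppa4 m-z+ embryos too). Hsp90aa1 measured 128 and 189 FPKM in 2-cell and 428 and 917 FPKM in 1-cell Dppa2-arm controls (log2 difference -2.0, SE 0.38, limma adjusted p = 0.000586). It measured 150.4 and 123 FPKM in 2-cell and 1228 and 1636 FPKM in 1-cell Dppa4-arm controls (log2 difference -3.37, SE 0.38, limma adjusted p = 1.47e-05). WT polyA RNA held 112 and 103 FPKM in 2-cell and 1569.9 and 935 FPKM in 1-cell embryos (log2 difference -3.48, SE 0.46, limma adjusted p = 2.02e-05). No 2-cell value reached the lowest 1-cell value in either table, although the 8 total RNA 1-cell libraries themselves spread from 428 to 1636 FPKM.

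Hsp90ab1 measured 164 and 144 FPKM in 2-cell and 152 and 141 FPKM in 1-cell Dppa2-arm controls, which overlapped. In Dppa4-arm controls Hsp90ab1 stood at 112 and 74.3 FPKM in 2-cell and 135 and 147 FPKM in 1-cell embryos (log2 difference -0.62, SE 0.19, limma adjusted p = 0.0155), a call lost without 2-cell replicate 2 or 1-cell replicate 2 and with only those libraries fitted (adjusted p up to 0.154). The ratio of Hsp90aa1 to Hsp90ab1 per library was therefore 0.777 to 1.97 in the 8 total RNA 2-cell libraries and 2.82 to 11.1 in the 8 total RNA 1-cell libraries. In polyA RNA the ratio was 0.662 to 2.83 in the 14 2-cell and 8.73 to 17.8 in the 2 1-cell embryos. Hsp90b1 (GRP94), the HSP90 of the endoplasmic reticulum, measured 66.7 and 97.6 FPKM in 2-cell and 172 and 209 FPKM in 1-cell Dppa4-arm controls (log2 difference -1.22, SE 0.20, limma adjusted p = 0.000304), and differed by 0.01 in Dppa2-arm controls. All members together made up 0.409% to 0.490% of summed FPKM in 2-cell and 0.795% to 1.26% in 1-cell total RNA libraries. A difference in FPKM is one in share of RNA, and less of a transcript cannot be told apart from more of the others.

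**Figure D2:**
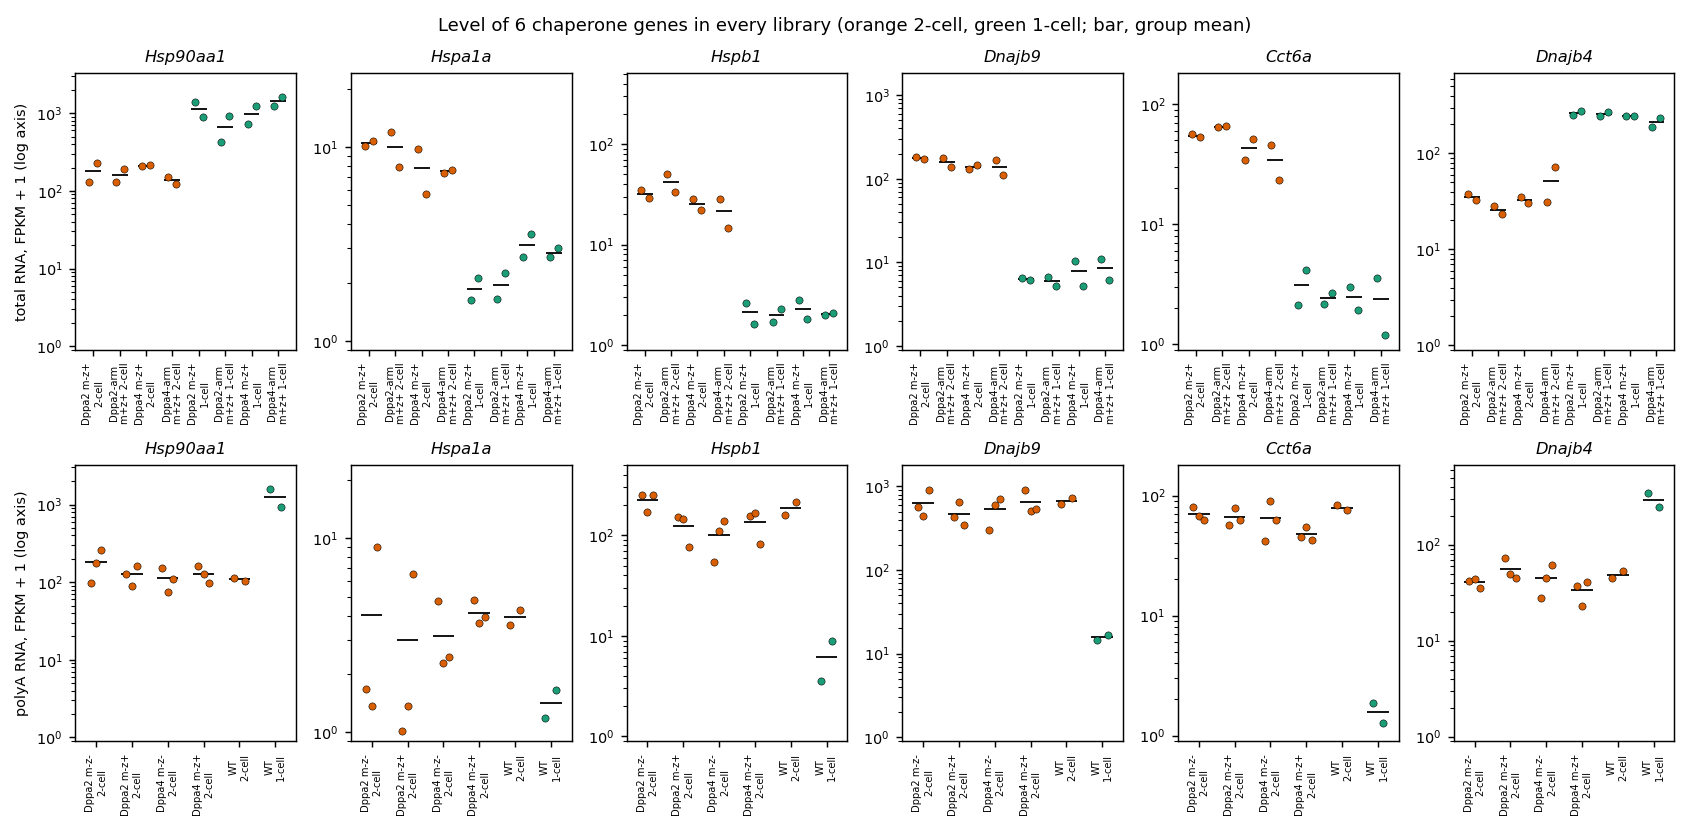
FPKM + 1 on a log axis (y) in every library of total RNA (upper row) and polyA RNA (lower row) for Hsp90aa1, Hspa1a, Hspb1, Dnajb9, Cct6a and Dnajb4, by group (x), each point 1 library and each bar a group mean, 2-cell groups left of 1-cell groups. Hsp90aa1 and Dnajb4 are lower and Hspb1, Dnajb9 and Cct6a higher in every 2-cell library than in any 1-cell library of the same table.

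Hspb1 (HSP27; chr5:135887919-135889563, plus strand), the most widely expressed small heat shock protein, was near 1 FPKM in 1-cell total RNA and rose in all 5 stage comparisons. It measured 49.9 and 32.3 FPKM in 2-cell and 0.696 and 1.28 FPKM in 1-cell Dppa2-arm controls (log2 difference 4.39, SE 0.36, limma adjusted p = 7.09e-07). It measured 27.5 and 13.5 FPKM in 2-cell and 0.981 and 1.08 FPKM in 1-cell Dppa4-arm controls (log2 difference 3.33, SE 0.36, limma adjusted p = 1.1e-05), and WT polyA RNA held 158 and 216 FPKM in 2-cell and 2.59 and 7.89 FPKM in 1-cell embryos (log2 difference 5.04, SE 0.53, limma adjusted p = 1.62e-06). The stages were separated in each. Hspb11, which takes part in intraflagellar transport (Ift25) rather than acting as a typical small heat shock protein, went the other way, at 1.17 and 3.38 FPKM in 2-cell and 12.5 and 11.2 FPKM in 1-cell Dppa2-arm controls (log2 difference -2.06, SE 0.40, limma adjusted p = 0.000681). It also fell in Dppa4-arm controls (log2 difference -1.74, SE 0.40, limma adjusted p = 0.00313). Most other small heat shock proteins were low. Hspb2, Hspb3, Hspb7 and Hspb9 stayed under the filter in total RNA, as did Hspb2, Hspb7 and Hspb9 in polyA RNA, and Hspb8 did not exceed 1.09 FPKM in total RNA. Even so Hspb8 was called higher at the 2-cell stage in Dppa2-arm controls (log2 difference 0.76, SE 0.22, limma adjusted p = 0.00914; lost without 1-cell replicate 1, adjusted p up to 0.0602) and in Dppa4 m-z+ embryos (log2 difference 1.00, SE 0.22, limma adjusted p = 0.00217), and it reached 2.77 FPKM in polyA RNA, where 11 of 14 2-cell embryos were listed at 0. Hspb6, known from muscle, was detected in every library, at 0.519 to 4.41 FPKM in 2-cell and 1.28 to 3.40 FPKM in 1-cell total RNA and at 0.388 to 25.9 FPKM in 2-cell and 2.01 to 7.04 FPKM in 1-cell polyA RNA, and passed in no stage comparison.

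Hspbp1, a nucleotide exchange factor that restrains HSP70, was listed at 0 in 6 of 8 total RNA 1-cell libraries. It measured 10.9 and 4.94 FPKM in 2-cell and 0 and 0.188 FPKM in 1-cell Dppa2-arm controls (log2 difference 2.95, SE 0.41, limma adjusted p = 4.48e-05). In Dppa4-arm controls it measured 3.6 and 0.77 FPKM in 2-cell embryos and was listed at 0 in both 1-cell libraries (limma adjusted p = 0.00783), a call lost without 2-cell replicate 1 (adjusted p up to 0.108 over the alternatives). WT polyA RNA held 10.7 and 15.8 FPKM in 2-cell and 0.109 and 0 FPKM in 1-cell embryos (log2 difference 3.73, SE 0.66, limma adjusted p = 0.000399). Hspbap1, which binds HSP27, was lower at the 2-cell stage in both arms, at 2.07 and 1.69 FPKM in 2-cell and 9.79 and 10.9 FPKM in 1-cell Dppa2-arm controls (log2 difference -1.98, SE 0.22, limma adjusted p = 9.01e-06). Thus the genes named for binding a heat shock protein moved apart.

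The mitochondrial chaperonin pair passed in different libraries, and the difference between the kinds of library was not tested. Hspe1 (HSP10), the lid of the chamber, was lower at the 2-cell stage in total RNA, at 13.7 and 31.8 FPKM in 2-cell and 56 and 52.1 FPKM in 1-cell Dppa2-arm controls (log2 difference -1.32, SE 0.35, limma adjusted p = 0.00542) and 19.1 and 23.2 FPKM in 2-cell and 49.5 and 47.9 FPKM in 1-cell Dppa4-arm controls (log2 difference -1.17, SE 0.35, limma adjusted p = 0.0141). Both calls were lost when some 1 library was left out: 2-cell replicate 1 in the Dppa2 arm, and 2-cell replicate 1 or 1-cell replicate 1 or 2 in the Dppa4 arm (adjusted p up to 0.0776 and 0.0854). In WT polyA RNA Hspe1 was also lower in both 2-cell embryos, at 71.9 and 110.4 FPKM in 2-cell and 154 and 153 FPKM in 1-cell embryos, but short of the threshold (log2 difference -0.78, SE 0.44, limma adjusted p = 0.217). Hspd1 (HSP60), the chamber itself, did not pass in total RNA (log2 difference 0.39 in Dppa2-arm and -0.23 in Dppa4-arm controls, where it was called lower under TPM scaling). In WT polyA RNA Hspd1 stood at 21.9 and 14.7 FPKM in 2-cell and 61.8 and 54.3 FPKM in 1-cell embryos (log2 difference -1.64, SE 0.47, limma adjusted p = 0.0153), a call lost without either WT 1-cell replicate or WT 2-cell replicate 2 (adjusted p up to 0.12). The genes overlap on opposite strands, and polyA libraries do not mark strand.

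Among the HSP110 genes, exchange factors for HSP70, Hspa4 was called in opposite directions. It measured 22.7 and 14.5 FPKM in 2-cell and 36.5 and 33.8 FPKM in 1-cell Dppa4-arm controls (log2 difference -0.91, SE 0.26, limma adjusted p = 0.0116), a call lost without 2-cell replicate 2 or 1-cell replicate 1 (adjusted p up to 0.107). In WT polyA RNA Hspa4 measured 26.3 and 30.5 FPKM in 2-cell and 5.44 and 6.66 FPKM in 1-cell embryos (log2 difference 2.06, SE 0.40, limma adjusted p = 0.000961). The stages did not overlap in either comparison. Hsph1 passed in Dppa2-arm controls alone of the 3 control comparisons, at 77.7 and 62.8 FPKM in 2-cell and 44.7 and 45.7 FPKM in 1-cell embryos (log2 difference 0.62, SE 0.21, limma adjusted p = 0.0225), and kept that call under 5 of 10 alternatives. It also passed in Dppa4-arm controls without 2-cell replicate 2, and in WT polyA RNA when only those libraries were fitted.

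The 8 subunits of TRiC, which form its rings in equal numbers as proteins, did not move together as RNA. Cct6a (chr5:129786998-129846371, plus strand), the zeta subunit, had the largest rise of the 71 tested members in Dppa2-arm controls. It measured 63.6 and 64.3 FPKM in 2-cell and 1.16 and 1.67 FPKM in 1-cell Dppa2-arm controls (log2 difference 4.76, SE 0.48, limma adjusted p = 3.5e-06). It measured 44.6 and 22.2 FPKM in 2-cell and 2.58 and 0.186 FPKM in 1-cell Dppa4-arm controls (log2 difference 3.98, SE 0.48, limma adjusted p = 2.51e-05), and WT polyA RNA held 82.1 and 74.6 FPKM in 2-cell and 0.87 and 0.282 FPKM in 1-cell embryos (log2 difference 5.68, SE 0.40, limma adjusted p = 1.67e-08). No 1-cell library of either table exceeded 3.12 FPKM of Cct6a, and no 2-cell library fell below 22.2 FPKM. Cct6a overlaps Psph on the opposite strand and a small nucleolar RNA on its own. GENCODE M21 lists its gene type as processed transcript rather than protein coding, and any bearing of this on its values was not tested.

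Cct2 (beta) and Cct5 (epsilon) fell in total RNA. Cct2 measured 44.9 and 34.8 FPKM in 2-cell and 73.2 and 74.2 FPKM in 1-cell Dppa2-arm controls (log2 difference -0.88, SE 0.17, limma adjusted p = 0.000671), and 26.1 and 26.1 FPKM in 2-cell and 85.9 and 77.9 FPKM in 1-cell Dppa4-arm controls (log2 difference -1.61, SE 0.17, limma adjusted p = 8.68e-06). Cct5 differed by -0.79 in Dppa2-arm controls (limma adjusted p = 0.0119; lost without 2-cell replicate 2 or 1-cell replicate 2, adjusted p up to 0.13) and by -1.19 in Dppa4-arm controls (limma adjusted p = 0.00122). Neither passed in WT polyA RNA, where the log2 difference was -0.25 for Cct2 and 0.46 for Cct5. Cct8 (theta) fell in Dppa4-arm controls alone of the 3 control comparisons (log2 difference -0.77, SE 0.18, limma adjusted p = 0.00348), and under TPM scaling in Dppa2-arm controls as well.

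Cct4 (delta) was higher at the 2-cell stage in Dppa2-arm controls, at 9.99 and 11.9 FPKM in 2-cell and 6.39 and 5.12 FPKM in 1-cell embryos (log2 difference 0.82, SE 0.27, limma adjusted p = 0.017; lost without 2-cell replicate 2 or 1-cell replicate 2, adjusted p up to 0.182). It was also higher in WT polyA embryos, at 33.1 and 56.6 FPKM in 2-cell and 10.7 and 9.89 FPKM in 1-cell embryos (log2 difference 1.97, SE 0.50, limma adjusted p = 0.00699; lost without WT 2-cell replicate 2 or WT 1-cell replicate 2, adjusted p up to 0.0847). Tcp1 (alpha) rose in WT polyA embryos, at 139 and 184 FPKM in 2-cell and 39.9 and 35.9 FPKM in 1-cell embryos (log2 difference 2.05, SE 0.48, limma adjusted p = 0.0043), and differed by 0.73 in Dppa2-arm and 0.19 in Dppa4-arm controls (-0.17 under TPM scaling) without passing. Cct3 (gamma) and Cct7 (eta) passed in none of the 3 control comparisons, with log2 differences of -0.31, -0.64 and 0.53 for Cct3 and 0.52, 0.59 and 0.75 for Cct7 in Dppa2-arm, Dppa4-arm and WT polyA embryos. Scaling changed these calls, with Cct3 lower in both arms under TPM and Cct7 higher in both arms under median-ratio scaling. Tcp1 and Cct8 overlap genes on the opposite strand, which the polyA libraries cannot separate.

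The subunits were closer in level at the 2-cell stage. The most abundant subunit exceeded the least abundant by 4.95 to 8.94 times in the 8 total RNA 2-cell libraries and by 25.6 to 419 times in the 8 total RNA 1-cell libraries. Cct6a was the lowest subunit in all 8 of those 1-cell libraries and Cct4 in all 8 2-cell libraries. Without Cct6a the 1-cell ratio was 10.1 to 17.1, still above the 2-cell range. In polyA RNA the ratio was 4.91 to 16.5 in 14 2-cell embryos and 360 to 834 in 2 1-cell embryos (the higher values there have Cct6a below 1 FPKM). Of the relatives outside the ring, Cct6b, a testis form of the zeta subunit, rose in WT polyA RNA, at 10.1 and 11.6 FPKM in 2-cell and 0.061 and 0.0323 FPKM in 1-cell embryos (log2 difference 3.50, SE 0.62, limma adjusted p = 0.000392), and was under the filter in total RNA.

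**Figure D3:**
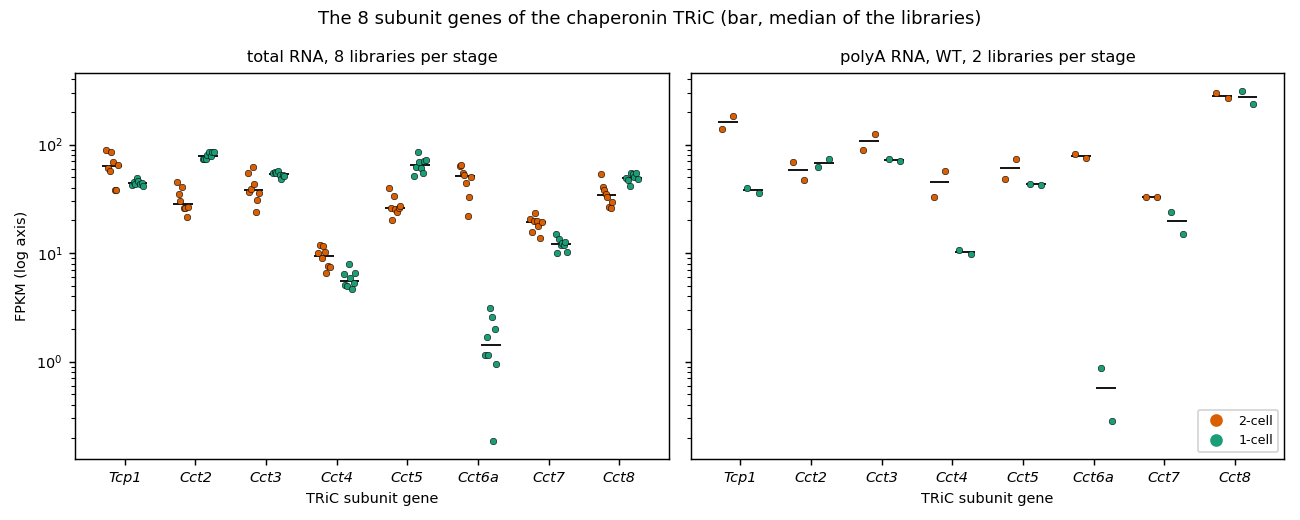
FPKM on a log axis (y) of the 8 TRiC subunits (x) in all 16 total RNA libraries (left) and the WT polyA embryos (right), each point 1 library and each bar the median, 2-cell left of 1-cell. Cct6a alone lies at or below 3.12 FPKM in every 1-cell library, and joins the range of the other subunits at the 2-cell stage.

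J-domain proteins of class A, the general partners of HSP70, fell or stayed. Dnaja1, the main cytosolic one, measured 69.4 and 66.3 FPKM in 2-cell and 189 and 223 FPKM in 1-cell Dppa2-arm controls (log2 difference -1.58, SE 0.17, limma adjusted p = 6.93e-06). It measured 49.8 and 63.9 FPKM in 2-cell and 293 and 300.5 FPKM in 1-cell Dppa4-arm controls (log2 difference -2.37, SE 0.17, limma adjusted p = 4.51e-07). In WT polyA RNA the values were 119 and 168 FPKM in 2-cell and 206 and 210.5 FPKM in 1-cell embryos, in the same order but short of the threshold (log2 difference -0.56, SE 0.56, limma adjusted p = 0.511). Dnaja2, its close relative, stayed between 133 and 199 FPKM in the 16 total RNA libraries and passed in no stage comparison, but was called lower in Dppa2-arm controls under TPM scaling. Dnaja4, a further cytosolic class A protein, fell in all 3 control comparisons (log2 difference -0.86 in Dppa2-arm controls, -0.90 in Dppa4-arm controls and -2.12 in WT polyA), the last under 5 of 10 alternatives.

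Class B had members that moved far in each direction. Dnajb9 (ERdj4; chr12:44205559-44210326, minus strand), a J-domain protein of the endoplasmic reticulum that binds BiP, became the most abundant member in polyA RNA at the 2-cell stage. It measured 177 and 138 FPKM in 2-cell and 5.71 and 4.21 FPKM in 1-cell Dppa2-arm controls (log2 difference 4.73, SE 0.33, limma adjusted p = 1.98e-07). It measured 167 and 108 FPKM in 2-cell and 9.84 and 5.14 FPKM in 1-cell Dppa4-arm controls (log2 difference 4.05, SE 0.33, limma adjusted p = 1.06e-06), and WT polyA RNA held 619 and 735 FPKM in 2-cell and 13.8 and 15.6 FPKM in 1-cell embryos (log2 difference 5.43, SE 0.44, limma adjusted p = 7.75e-08). The lowest 2-cell value was 108 FPKM in total RNA and 301 FPKM in polyA RNA, against highest 1-cell values of 9.84 and 15.6 FPKM. Dnajb14, a membrane-bound J-domain protein of the endoplasmic reticulum, stood lower at both stages. It measured 12.2 and 9.19 FPKM in 2-cell and 0.698 and 0.58 FPKM in 1-cell Dppa2-arm controls (log2 difference 2.83, SE 0.33, limma adjusted p = 1.02e-05), and 46.3 and 45.2 FPKM in 2-cell and 0.248 and 0.38 FPKM in 1-cell WT polyA embryos (log2 difference 5.16, SE 0.37, limma adjusted p = 2.75e-08).

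Dnajb4, Dnajb1 and Dnajb6, cytosolic class B partners of HSP70, went down in total RNA. Dnajb4 measured 27.4 and 22.6 FPKM in 2-cell and 242 and 267 FPKM in 1-cell Dppa2-arm controls (log2 difference -3.30, SE 0.28, limma adjusted p = 9.12e-07). In Dppa4-arm controls Dnajb4 measured 30.2 and 70.9 FPKM in 2-cell and 187 and 229.8 FPKM in 1-cell embryos (log2 difference -2.14, SE 0.28, limma adjusted p = 5.15e-05), and in WT polyA 43.5 and 51.7 FPKM in 2-cell and 340.5 and 245 FPKM in 1-cell embryos (log2 difference -2.58, SE 0.42, limma adjusted p = 0.000188). The stages did not overlap in any of them. Dnajb1 (HSP40), the stress-inducible partner of Hspa1a, also fell in total RNA, opposite to Hspa1a. It measured 15.9 and 13.8 FPKM in 2-cell and 61.1 and 65.1 FPKM in 1-cell Dppa2-arm controls (log2 difference -2.02, SE 0.14, limma adjusted p = 2.02e-07), and 31.8 and 29.1 FPKM in 2-cell and 63.9 and 71.2 FPKM in 1-cell Dppa4-arm controls (log2 difference -1.12, SE 0.14, limma adjusted p = 3.54e-05). In WT polyA it stood at 21 and 26.1 FPKM in 2-cell and 50.7 and 53.4 FPKM in 1-cell embryos, lower in both but short of the threshold (log2 difference -1.12, SE 0.68, limma adjusted p = 0.253). Dnajb6, which suppresses aggregation of polyglutamine proteins, fell by less in total RNA (log2 difference -0.95 in Dppa2-arm and -0.88 in Dppa4-arm controls). Dnajb5, a low-level cytosolic relative, went the other way, at 1.82 and 0.584 FPKM in 2-cell and 0.0181 and 0 FPKM in 1-cell Dppa2-arm controls (log2 difference 1.07, SE 0.38, limma adjusted p = 0.0258), a call that held under 5 of 10 alternatives and was lost without 2-cell replicate 1 or 1-cell replicate 1 or 2 (adjusted p up to 0.207). Its 2-cell libraries also lay above the 1-cell libraries in Dppa4-arm controls, short of the threshold (log2 difference 0.83, SE 0.38, limma adjusted p = 0.0866), and it rose in the m-z+ embryos of the Dppa2 and Dppa4 arms under 5 and 8 of 10 alternatives.

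Class C, whose members share little beyond the J domain, had 7 higher and 12 lower of 24 tested in Dppa2-arm controls, 2 higher and 12 lower of 24 in Dppa4-arm controls, and 2 higher and 6 lower of 26 in WT polyA RNA. The background over all genes was 31.7% higher and 29.9% lower, 24.9% and 24.2%, and 17.4% and 8.42% in the same order. Dnajc11, a mitochondrial protein linked to cristae organisation, measured 17.9 and 17.8 FPKM in 2-cell and 160.2 and 173 FPKM in 1-cell Dppa2-arm controls (log2 difference -3.15, SE 0.22, limma adjusted p = 1.89e-07). It measured 26 and 31.5 FPKM in 2-cell and 193 and 179 FPKM in 1-cell Dppa4-arm controls (log2 difference -2.66, SE 0.22, limma adjusted p = 1.13e-06), and 12.9 and 7.32 FPKM in 2-cell and 70.3 and 58.1 FPKM in 1-cell WT polyA embryos (log2 difference -2.60, SE 0.55, limma adjusted p = 0.00188). All 2-cell values lay below all 1-cell values. Dnajc12, a co-chaperone of aromatic amino acid hydroxylases, did the reverse. It was listed at 0 in 7 of 8 total RNA 1-cell libraries, and measured 9.41 and 6.54 FPKM in 2-cell Dppa2-arm controls (limma adjusted p = 1.73e-05) and 10.6 and 6.99 FPKM in 2-cell Dppa4-arm controls (limma adjusted p = 2.06e-05). WT polyA RNA held 100.4 and 64.6 FPKM in 2-cell and 0 and 0.448 FPKM in 1-cell embryos (log2 difference 6.08, SE 0.67, limma adjusted p = 2.88e-06).

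Dnajc19, a subunit of the mitochondrial import motor, measured 2.07 and 0 FPKM in 2-cell and 13.6 and 13.3 FPKM in 1-cell Dppa2-arm controls (log2 difference -3.04, SE 0.59, limma adjusted p = 0.000668). Its calls in Dppa4-arm controls (log2 difference -1.86) and WT polyA (log2 difference -1.51) held under 6 and 4 of 10 alternatives. Dnajc7, which binds HSP70 and HSP90, Dnajc8, a splicing factor, and Dnajc9, a histone chaperone, fell together with Dnajc14 in all 3 control comparisons. Their log2 differences were -1.28, -1.60, -1.39 and -0.80 in Dppa2-arm controls, -1.64, -1.12, -1.82 and -0.80 in Dppa4-arm controls, and -1.39, -1.38, -1.41 and -1.51 in WT polyA. The WT polyA calls of the 4 held under 5 to 8 of 10 alternatives and were lost without 1 or more of the WT libraries. Dnajc21, which acts in ribosome assembly in the cytosol, was the most abundant member of total RNA 2-cell libraries, at 174 to 305 FPKM, and at 240.3 to 403 FPKM in 1-cell libraries, and passed in no control comparison, but was called lower in both arms under TPM scaling.

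Chaperone genes outside the name rule were counted from lists. Of all genes, 31.7% rose and 29.9% fell in Dppa2-arm controls, 24.9% and 24.2% in Dppa4-arm controls, and 17.4% and 8.42% in WT polyA RNA. Of 9 prefoldin subunits and TRiC regulators, which hand actin and tubulin to TRiC or adjust it, 6 fell and 1 rose in Dppa2-arm controls (median log2 difference -1.13), 6 fell and none rose in Dppa4-arm controls (median -1.61), and 3 fell and 1 rose in WT polyA RNA (median -0.63). Pfdn4, a prefoldin subunit, fell in all 3 (log2 difference -3.48, limma adjusted p = 1.12e-06 in Dppa2-arm controls). Of 23 co-chaperones of HSP90 and HSP70, 6 rose and 6 fell in Dppa2-arm controls, 7 and 7 in Dppa4-arm controls, and 3 and 2 in WT polyA RNA. Bag3, an exchange factor for HSP70 induced by stress (log2 difference 4.14, limma adjusted p = 4.94e-08 in Dppa2-arm and log2 difference 4.89, limma adjusted p = 2.23e-08 in Dppa4-arm controls), and Fkbp4, an HSP90 partner (log2 difference 2.90, limma adjusted p = 2.54e-05 in Dppa2-arm controls), rose, and Nudc, another HSP90 partner, fell (log2 difference -3.10, limma adjusted p = 4.55e-08 in Dppa2-arm controls). Of 9 ER folding genes 3 rose and 3 fell, 1 rose and 5 fell, and 2 rose and 1 fell in Dppa2-arm, Dppa4-arm and WT polyA embryos. P4hb, a disulphide isomerase, rose in all 3 (log2 difference 2.35, limma adjusted p = 4.66e-06 in Dppa2-arm controls). Of 6 mitochondrial folding genes 4 fell and 1 rose in each arm, and 1 rose in WT polyA RNA. The riser in each was Clpp, a matrix protease subunit (log2 difference 3.32, limma adjusted p = 1.34e-05 in Dppa2-arm controls). The lists of stage genes moved wholly 1 way in total RNA, with 10 of 10 maternal transcripts lower in each arm and 7 of 8 and 8 of 8 2-cell genes higher in the Dppa2 and Dppa4 arms.

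No member passed the threshold between genotypes. At the 2-cell stage the RNA of the target gene itself overlapped between m-z+ and control embryos in total RNA. In total RNA, m-z+ against control gave 0 of 71 members by limma in each arm and stage, with 7 (Dppa2 arm, 2-cell), 1 (Dppa2 arm, 1-cell), 3 (Dppa4 arm, 2-cell) and 0 (Dppa4 arm, 1-cell) at an unadjusted p under 0.05. Over all genes, 12.8%, 3.05%, 2.67% and 1.27% had such an unadjusted p in the same order, and the background past the adjusted threshold was 0.186%, 0.0398%, 0.00% and 0.00664%. In Dppa2 m-z+ embryos the member log2 differences ran from -0.81 to 1.40 at the 2-cell and from -0.37 to 0.83 at the 1-cell stage. In Dppa4 m-z+ embryos they ran from -1.06 to 0.72 at the 2-cell and from -0.59 to 0.47 at the 1-cell stage. The 95% interval of the difference lay within 1 log2 unit of 0 for 52 (Dppa2 arm, 2-cell), 61 (Dppa2 arm, 1-cell), 54 (Dppa4 arm, 2-cell) and 63 (Dppa4 arm, 1-cell) of 71 members, so larger changes lay outside the interval for most members but not for all.

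The marker genes show this per library. Hspa1a measured 9.15 and 9.74 FPKM in 2-cell Dppa2 m-z+ embryos and 11 and 6.91 FPKM in their controls (log2 difference 0.10, 95% interval -0.57 to 0.77). It measured 8.84 and 4.72 FPKM in 2-cell Dppa4 m-z+ embryos and 6.37 and 6.66 FPKM in their controls (log2 difference -0.00, 95% interval -0.67 to 0.67). Hspb1 measured 33.7 and 28 FPKM in 2-cell Dppa2 m-z+ embryos and 49.9 and 32.3 FPKM in controls (log2 difference -0.38, 95% interval -1.16 to 0.41). The genotypes overlapped in each. Cct6a stood at 55.1 and 52.6 FPKM in 2-cell Dppa2 m-z+ embryos and 63.6 and 64.3 FPKM in controls (95% interval -1.29 to 0.80), and Dnajb9 at 182 and 170.4 FPKM in m-z+ embryos and 177 and 138 FPKM in controls (95% interval -0.55 to 0.89).

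The members with the smallest p per comparison were Hsp90aa1 in 1-cell embryos of both arms and Dnajc1 and Hspb11 at the 2-cell stage. Hsp90aa1 measured 1397 and 896 FPKM in 1-cell Dppa2 m-z+ embryos and 428 and 917 FPKM in controls (log2 difference 0.83, SE 0.38, limma adjusted p = 1). In 1-cell Dppa4 m-z+ embryos it measured 724 and 1229.9 FPKM, against 1228 and 1636 FPKM in controls (log2 difference -0.59, SE 0.38, limma adjusted p = 1), so the genotypes overlapped in each arm and the differences had opposite signs. Dnajc1, a J-domain protein of the endoplasmic reticulum membrane, measured 7.06 and 5.96 FPKM in 2-cell Dppa2 m-z+ embryos and 9.3 and 15.8 FPKM in controls (log2 difference -0.81, SE 0.24, limma adjusted p = 0.178). Hspb11 measured 0.0918 and 1.24 FPKM in 2-cell Dppa4 m-z+ embryos and 1.73 and 2.88 FPKM in controls (log2 difference -1.06, SE 0.40, limma adjusted p = 1). The stage change itself differed between m-z+ and control embryos for 0 of 71 members in either arm by limma (background 0.00% in the Dppa2 and 0.00664% in the Dppa4 arm). At an unadjusted p under 0.05 there were 4 and 1 members, beside 8.62% and 1.79% of all genes.

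**Figure D4:**
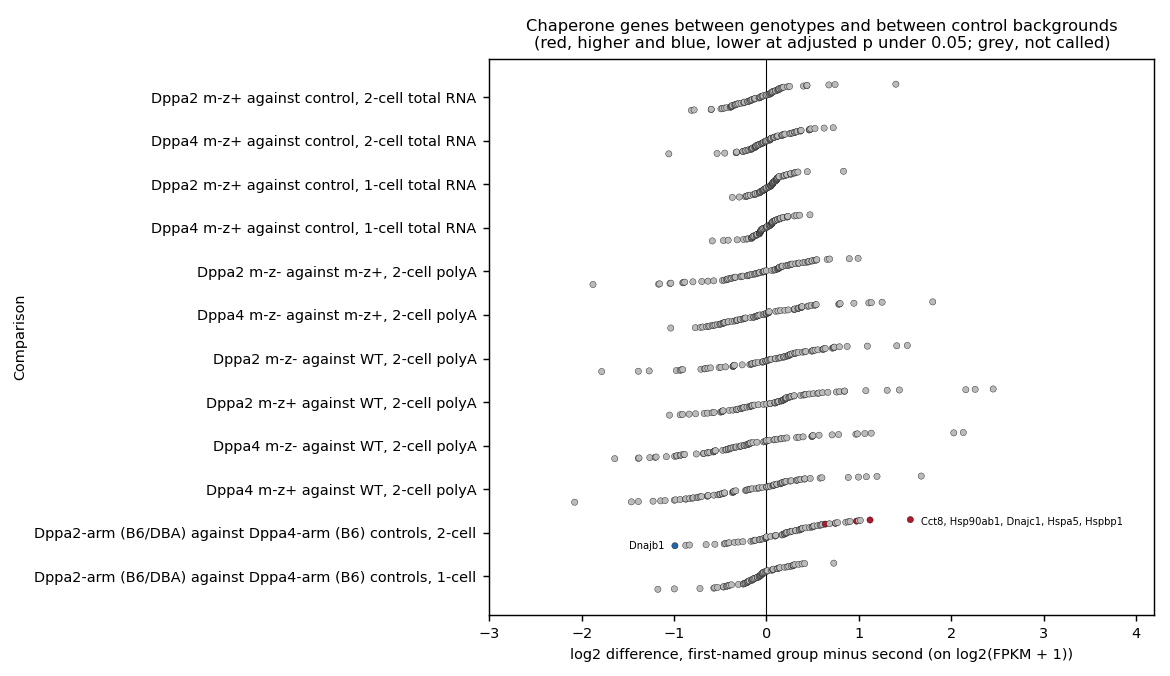
Log2 difference in FPKM + 1 (x axis) of every tested member for each genotype comparison and for the controls of the arms (rows), each point 1 member, sorted by value within its row. In the genotype rows the points centre near 0 and no member passed, the 6 coloured points in the 2-cell control row are the members that passed there, and the polyA rows are wider than the total RNA rows.

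In single 2-cell embryos the comparisons were less precise, with a median standard error of 0.44 (m-z- against m-z+) and 0.49 (against WT) beside 0.26 in total RNA. No member of 79 passed in labelled Dppa2 m-z- against Dppa2 m-z+ (background 0.00540%) or in Dppa4 m-z- against Dppa4 m-z+ (background 0.0162%). At an unadjusted p under 0.05 there were 4 and 3 members, where 7.65% and 7.0% of all genes had such a p. None passed against WT in Dppa4 m-z- (background 0.0648%), Dppa4 m-z+ (0.00%), labelled Dppa2 m-z- (0.0973%) or Dppa2 m-z+ embryos (0.113%). Those 4 comparisons had 8, 6, 3 and 6 members at an unadjusted p under 0.05, beside 10.7%, 6.65%, 6.21% and 7.75% of all genes. The Dppa2-arm embryos differ from WT in strain background as well, and the effects cannot be told apart. Only 21 and 19 of 79 members had a 95% interval within 1 log2 unit of 0 when m-z- was set against m-z+ (Dppa2 arm first, then Dppa4 arm), and 11 to 13 against WT. For most members the interval thus did not exclude a change of 1 log2 unit here. The nearest to the threshold included Hspa4l, an HSP110 known from the testis, at 3.73, 7.37 and 4.11 FPKM in labelled Dppa2 m-z- and 14.7, 10.1 and 11.9 FPKM in Dppa2 m-z+ embryos (log2 difference -1.16, SE 0.43, limma adjusted p = 0.593). Dnaja4 measured 19.3, 5.96 and 8.86 FPKM in the Dppa4 m-z- group and 0.88 and 2.98 FPKM in WT embryos (log2 difference 2.03, SE 0.63, limma adjusted p = 0.305), and it was low in both WT embryos relative to all 12 others.

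Comparisons between the arms, 4 in all and added after the values were seen, asked whether the effects differed. The m-z+ effect in the Dppa2 arm minus that in the Dppa4 arm passed for 0 of 71 members at the 2-cell stage (background 0.00664%) and 0 at the 1-cell stage (background 0.0199%), and the m-z- effect for 0 of 79 (background 0.0162%), all by limma. There were 5, 1 and 5 members at an unadjusted p under 0.05, beside 7.26%, 2.12% and 10.2% of all genes. The stage change in controls differed between the arms for 0 of 71 by limma (background 0.139%), with 20 at an unadjusted p under 0.05, where 15.3% of all genes had such a p. The nearest were Dnajb1 (log2 difference -0.89, SE 0.20, limma adjusted p = 0.0868) and Hsp90b1 (log2 difference 1.23, SE 0.29, limma adjusted p = 0.0971).

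Control embryos of the arms differed at the 2-cell stage. There 5 members were higher and 1 lower in Dppa2-arm (B6/DBA) than in Dppa4-arm (B6) controls of 71 tested (background 4.50% higher and 4.63% lower), and none passed at the 1-cell stage by limma (background 1.01%; 5 members at an unadjusted p under 0.05, beside 7.74% of all genes). Hspa5 measured 137 and 54.2 FPKM in Dppa2-arm and 41.2 and 37.2 FPKM in Dppa4-arm 2-cell controls (log2 difference 1.12, SE 0.32, limma adjusted p = 0.0457). Dnajb1 measured 15.9 and 13.8 FPKM in Dppa2-arm and 31.8 and 29.1 FPKM in Dppa4-arm 2-cell controls (log2 difference -0.99, SE 0.14, limma adjusted p = 0.00291). The libraries of the arms did not overlap for either gene, while they overlapped for 33 of 71 members. Hspbp1 (log2 difference 1.56), Dnajc1 (0.98), Hsp90ab1 (0.75) and Cct8 (0.64) were the other higher members, with limma adjusted p of 0.0339, 0.0281, 0.0302 and 0.0465. Under TPM scaling no member was higher and 2 were lower, where 301 of 15068 genes were higher and 952 lower. The member count also changed when 1 library was left out. Summed maternal transcripts stood at 316 and 332 FPKM in the Dppa2-arm and 502 and 747 FPKM in the Dppa4-arm 2-cell controls. Their part in the result was not tested, and strain, colony and arm cannot be told apart.

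Single 2-cell embryos varied within groups. Hspa1a measured 0.661, 0.372 and 8.02 FPKM in the 3 embryos labelled Dppa2 m-z-, 3.75, 1.27 and 1.44 FPKM in those of Dppa4 m-z-, 0.0121, 0.359 and 5.57 FPKM in Dppa2 m-z+, 3.83, 2.65 and 2.91 FPKM in those of Dppa4 m-z+, with 2.56 and 3.29 FPKM in WT embryos. The highest and the lowest values thus both came from the Dppa2 arm, where the third embryo of each genotype stood above its group mates. The third embryo labelled Dppa2 m-z- held the highest of 14 values for 12 of 79 members, which were Hspa1a, Hspa1b, Hspa2, Hspa8, Hspb8, Hsp90aa1, Hsp90ab1, Hsp90b1, Dnaja1, Dnajb1, Dnajb9 and Cct8. Its summed FPKM over all genes (675241) was also the highest of the 14, and the same count was not made over all genes. Another embryo with that label, the first, also held 12 highest values, including Hspb1, Tcp1, Cct2, Cct4 and Cct5, Hsph1 was highest in the first WT embryo, and the count ran from 0 to 12 across embryos. In the third Dppa2 m-z+ embryo the mitochondrial Hspd1, Hspe1 and Hspa9 were highest instead, at 61.8, 228 and 74.4 FPKM.

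**Figure D5:**
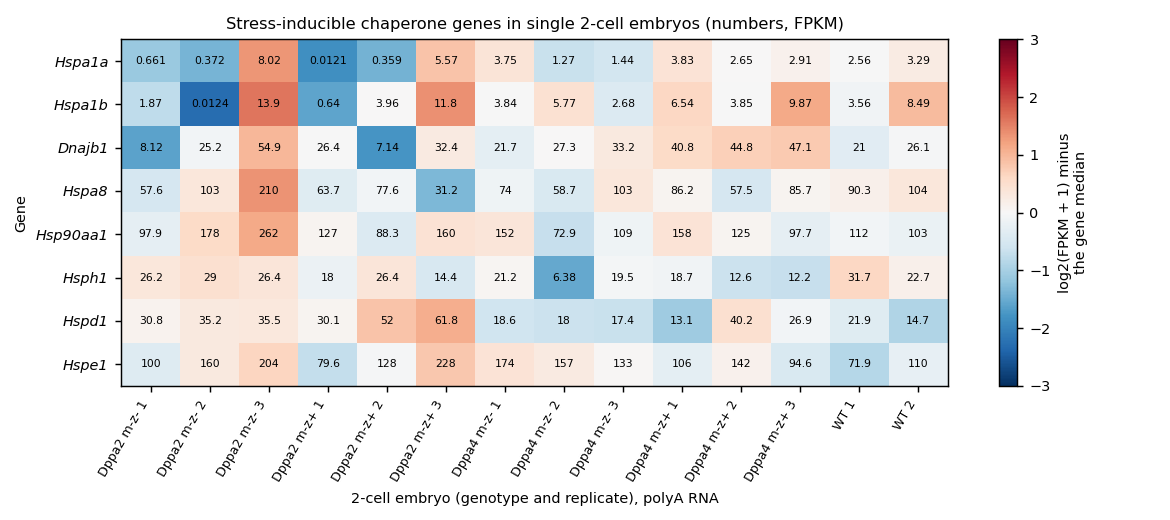
Heat map in which colour is log2(FPKM + 1) minus the gene's median and the printed numbers are FPKM, for Hspa1a, Hspa1b, Dnajb1, Hspa8, Hsp90aa1, Hsph1, Hspd1 and Hspe1 (rows) in the 14 single 2-cell polyA embryos (columns, by group). The third embryo labelled Dppa2 m-z- has the highest Hspa1a, Hspa1b, Dnajb1, Hspa8 and Hsp90aa1, while Hspd1 and Hspe1 are highest in the third Dppa2 m-z+ embryo. The third embryo labelled Dppa2 m-z- also has the highest FPKM summed over all genes.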

How the data were processed

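Whole mouse embryos were lysed and sequenced, per the labels' protocols, as reverse-stranded total RNA (SMARTer-Seq Stranded) or as polyA RNA without strand (SMARTer Ultra Low and Nextera XT). The authors deposited FPKM per gene and library, made with HISAT2 2.1.0 and StringTie 1.3.3b on mm10, per the submitters' processing notes. Which annotation, filters and strand option were used is "not given in the sources used here". Depth is therefore unknown, and the number of libraries limits the precision. From the deposited FPKM, log2(FPKM + 1) was computed, and a gene was tested in a table where 2 or more of its libraries reached 1 FPKM (15068 in total RNA, 18506 in polyA RNA). A difference on this scale understates the change of low genes. Each table was fitted as a whole, its 16 libraries with a mean for every group, using limma 3.58.1 (R 4.3.3, trend and robust options), two-sided, with Benjamini-Hochberg adjustment over all genes tested. Errors are limma standard errors. The code was tested on simulated data. Gene positions are from GENCODE M21 (mm10) and promoters from RefSeq.

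The members and lists were chosen with earlier results of these data known. Genes were named by a rule: the markers, Hspa1b, the heat shock factors, the 8 TRiC subunits, the 5 largest rises and falls per control stage comparison, the smallest p per genotype comparison, and the most abundant members. Others named (for example Hspbap1, Hspb6, Hspb8, Dnajb5, Hspa4, Hspd1, Hspe1, Hspa8 and Hspa9) were chosen after their values were seen to describe each family. The 4 comparisons between arms were added after seeing the data. Alternatives were another pseudocount, no filter, TPM and median-ratio scaling, a replicate block, a fit of only the compared libraries, and leaving out each library.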

Additional observations from a re-analysis of the deposited data

How the results depend on the processing

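Of the counts of members past the threshold, most stayed within 1.5 times under each alternative. The exceptions were these. In WT polyA embryos 20 members were higher at the 2-cell stage when only the compared libraries were fitted, against 13 with all libraries, and 4 to 9 were lower when 1 library was left out, against 12. In Dppa4 m-z+ embryos 9 to 12 were higher when 1 library was left out, against 14. For 2-cell Dppa2 m-z+ embryos against their controls, leaving out 1 library gave 0 to 1 members, 1 without either control replicate. For Dppa4 m-z- and for labelled Dppa2 m-z- against WT it gave 0 to 1, 1 without WT 2-cell replicate 2. The 6 members that differed between the controls of the arms at the 2-cell stage became 3 with a pseudocount of 0.1, 1 with no filter, 2 under TPM scaling (0 higher and 2 lower), 0 with only the compared libraries and 1 to 15 when 1 library was left out, the 15 without Dppa4-arm 2-cell replicate 1 and the 1 without replicate 2. Median-ratio scaling moved the median of all genes by -0.21 in WT polyA RNA and gave 12 higher and 15 lower members. Of all 18506 genes 2805 were then higher and 2355 lower. For alternatives other than TPM and median-ratio scaling no count over all genes is given, so those member counts stand without a background.

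Some single values changed sign. Under median-ratio scaling Cct8 went to 0.018 in Dppa2-arm controls and to -0.35 in WT polyA RNA, and under TPM scaling Hspa1b (-0.11) and Tcp1 (-0.17) in Dppa4-arm controls and Cct8 (-0.17) in WT polyA RNA. Leaving out 1 library gave Cct8 -0.24 to 0.13 in Dppa2-arm controls, Tcp1 -0.24 to 0.61 in Dppa4-arm controls, and in WT polyA RNA Hsf1 -0.45 to 0.095, Hsf2 -0.26 to 0.81, Cct2 -0.52 to 0.017 and Cct8 -0.15 to 0.26. Hspa12b in labelled Dppa2 m-z- against WT ran from -2.77 to 0, the 0 without WT 2-cell replicate 1, the 1 library with a value. The cause of these changes was not tested.

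Replicate numbers are shared in the labels. Deviations of same-numbered libraries correlated at -0.14 to 0.14 across genes in the total RNA table and -0.18 to 0.12 in the polyA table. In groups of 2 the deviations mirror each other, and such correlations cannot exclude that same-numbered libraries share a collection or batch. With the number as a replicate block, 26 members were higher and 25 lower in Dppa2-arm controls, 19 and 22 in Dppa2 m-z+ embryos, 13 and 30 in Dppa4-arm controls, 15 and 26 in Dppa4 m-z+ embryos and 14 and 12 in WT polyA embryos, 5 differed between 2-cell controls of the arms, and no member passed in a genotype comparison. Without counts, what depth limits cannot be stated, and values under 1 FPKM are the least certain.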
